A study of Mus musculus with 2 samples.

Results

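The 30 genes described here encode the enzymes that build cholesterol from acetyl-CoA, the enzymes that make and modify long-chain fatty acids from the same precursor, the factors that control both routes, and 1 sterol transfer protein. They were chosen by symbol. The Ensembl identifiers of the gene tables were matched to GENCODE mouse symbols, and all 30 symbols were found among 43346 rows with an Ensembl gene identifier. By role they fall into 7 genes of the mevalonate arm up to farnesyl diphosphate, 3 genes that make squalene and lanosterol, 8 genes that turn lanosterol into cholesterol, 5 genes of the SREBP factors and their control, 6 genes of fatty acid synthesis, desaturation and elongation, and the sterol carrier gene Stard4.

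RNA was measured in the midbrains of 2 embryos of the B6NCrl mouse strain at 14.5 days of development, with 1 total RNA library per embryo, no treatment and no second condition. The labels call the libraries biological replicates 1 and 2, describe each as the midbrain of 1 pup, and place the collections on different days. The 2 pups are embryo 1 and embryo 2 in the following. Their sex is given as pooled male and female, while Xist was at 0.01 and 62.0 TPM and the Y-linked Eif2s3y at 73.0 and 0 TPM in embryos 1 and 2. The libraries were made from 10 ng of RNA longer than 200 nt, with ERCC spike-in RNAs, under a protocol named after SmartSeq, a way to amplify cDNA from little RNA. With 1 group of 2 embryos no difference can be tested, so levels are given with the SD over both embryos and ratios with a counting interval only.

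Cholesterol synthesis begins when acetyl-CoA units are joined and reduced to mevalonate, which is phosphorylated and condensed to farnesyl diphosphate, then to squalene, and closed into the ring of lanosterol. Fatty acid synthesis shares the acetyl-CoA pool and is switched on by the same SREBP transcription factors, which the escort protein SCAP releases from the endoplasmic reticulum when sterols are low and which the INSIG proteins hold back when sterols are high. The developing brain makes its own cholesterol, since lipoproteins of the blood do not pass the blood-brain barrier in useful amounts, and growing neurites need both sterols and fatty acids for membrane.

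The promoters of the genes were read for letters known from SREBP control. SREBP factors bind the sterol regulatory element, often beside a CCAAT box that binds the factor NF-Y. RefSeq promoter windows of GRCm38.p6, each from 250 bases before to 50 bases after an annotated start, were held for 24 of the 30 genes, in 32 windows. The stretches printed here were picked because Hmgcs1 holds the sterol regulatory element letters, Mvk holds the most CCAAT boxes, Fasn is the fatty acid gene with the most, and Insig1 holds an E-box (CACGTG) as well. They stop before the first annotated transcript start, and capitals mark the letters of the sterol regulatory element, of the CCAAT box on either strand and of the E-box.
Hmgcs1, chr13:119690101-119690350, plus strand: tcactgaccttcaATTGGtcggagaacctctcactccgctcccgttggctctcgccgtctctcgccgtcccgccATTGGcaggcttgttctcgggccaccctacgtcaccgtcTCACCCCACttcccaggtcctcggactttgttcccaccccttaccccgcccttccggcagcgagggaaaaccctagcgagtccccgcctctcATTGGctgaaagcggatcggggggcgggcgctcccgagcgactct
Mvk, chr5:114444019-114444268, plus strand: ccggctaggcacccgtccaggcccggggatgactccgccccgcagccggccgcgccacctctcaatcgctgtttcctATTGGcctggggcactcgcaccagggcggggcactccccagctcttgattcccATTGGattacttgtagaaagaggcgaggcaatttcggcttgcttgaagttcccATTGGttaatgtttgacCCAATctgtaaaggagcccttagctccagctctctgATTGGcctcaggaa
Insig1, chr5:28071162-28071362, plus strand: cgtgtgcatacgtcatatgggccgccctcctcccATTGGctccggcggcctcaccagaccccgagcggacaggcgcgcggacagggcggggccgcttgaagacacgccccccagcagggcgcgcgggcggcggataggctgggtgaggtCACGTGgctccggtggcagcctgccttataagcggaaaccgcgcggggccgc
Fasn, chr11:120824548-120824797, minus strand: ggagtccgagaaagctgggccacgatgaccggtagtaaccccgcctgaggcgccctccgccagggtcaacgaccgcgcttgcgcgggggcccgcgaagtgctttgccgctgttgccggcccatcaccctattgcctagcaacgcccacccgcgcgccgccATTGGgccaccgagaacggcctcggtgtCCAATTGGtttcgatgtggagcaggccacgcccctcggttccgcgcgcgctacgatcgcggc

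In Hmgcs1 the letters TCACCCCAC began 137 bases before the RefSeq start, on the strand of the gene. Searched on both strands of the windows, TCACNCCAC was found in 1 of the 24 genes (4.17%) and in 1.44% of all 27025 genes with a window. The looser letters TCACNCNAC added Nsdhl, to 8.33% against 3.15%. Every TCACNCCAC match is also a TCACNCNAC match. The other letters were counted on their own and may overlap each other, as a pair of CCAAT boxes on opposite strands does in Fasn. CCAAT was found in 20 of the 24 genes (83.3%), against 41.1% of all genes and 43.5% of the protein-coding genes detected in both embryos. CACGTG was found in 5 genes, Hsd17b7, Insig1, Dhcr7, Sc5d and Scap (20.8%), against 8.09% of all genes and 11.7% of detected coding genes. The GC box GGGCGG was found in 20 genes (83.3%), against 38.2% of all genes and 70.3% of detected coding genes. A match is a description of these letters and not a bound site. Of Fdps, Fdft1, Sqle, Scd1, Scd2 and Stard4 no window was used.

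Markers of the labelled tissue were present. The 6 midbrain markers were all detected, with Tcf7l2 at 607 and 555 TPM and Otx2 at 99.9 and 76.3 TPM, and the 7 genes of immature neurons summed to 5270 and 5899 TPM. The 6 progenitor genes summed to 1960 and 2065 TPM, of which Fabp7 alone held 1214 and 1511 TPM. The defining markers of adipocytes and hepatocytes, cell types known for making lipids, summed to 0.13 and 0.43 TPM over 4 genes, with none detected. In embryo 1 and embryo 2 the libraries held gene counts of 31687050 and 29182388, with 3.15% and 3.32% of counts on spike-ins and 1.93% and 2.58% on mitochondrial genes.

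RNA of every one of these genes was found in both embryos. Detection meant at least 1 TPM in each embryo, TPM being the share of transcripts that a gene holds, per length and scaled to a fixed library total. All 30 genes were detected, against 59.5% of protein-coding genes, and 28 stood at 10 TPM or more in both embryos. The median level was 59.8 TPM in embryo 1 and 53.9 TPM in embryo 2, while detected coding genes had a median of 20.3 TPM on their mean level. Of the 30 genes, 26 lay above the median of the detected coding genes, 17 above their 75th percentile and 7 above their 90th. Together the genes held 2704 and 2520 TPM. The 5 highest, Hmgcs1, Fdps, Scd2, Acat2 and Acly, took 46.9% and 46.2% of that sum. As means of both embryos the levels ran from 5.06 TPM for Scd1 to 372 TPM for Hmgcs1.

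**Figure D1:**
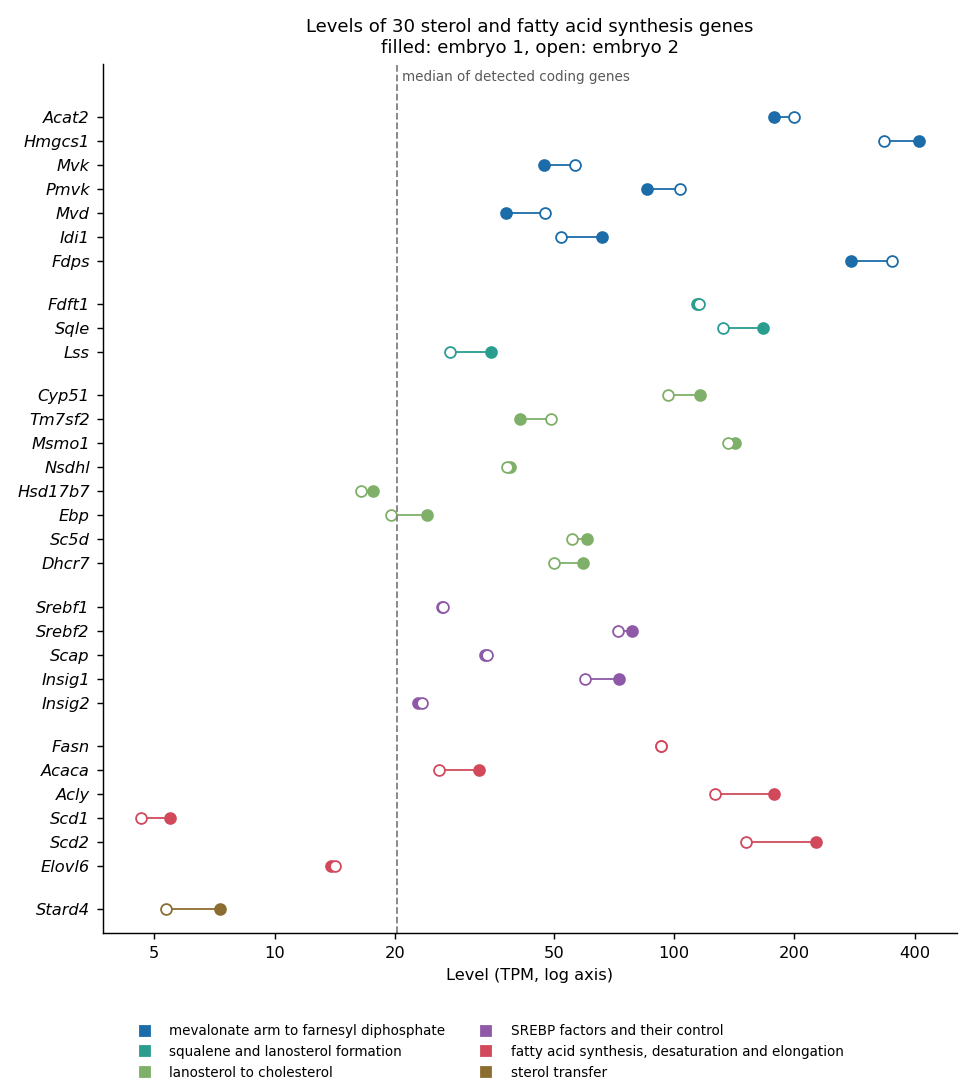
Level of each gene in TPM on a log axis, filled circles for embryo 1 and open circles for embryo 2, coloured by role; the dashed line is the median of detected protein-coding genes, 20.3 TPM. Hsd17b7, Scd1, Elovl6 and Stard4 have means left of the line, and the other 26 genes lie to its right by their means.

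The mevalonate arm held both the highest genes and some of moderate level. Acat2, the cytosolic thiolase that joins a pair of acetyl-CoA molecules, was at 178 TPM in embryo 1 and 199.7 TPM in embryo 2 (189 ± 15.3, SD, n = 2). Hmgcs1, which adds the next acetyl-CoA to form HMG-CoA, was at 409 and 335 TPM (372 ± 52.2, SD, n = 2), the highest level of the 30 and the 97.5th percentile of detected coding genes. Its gene lies at chr13:119690379-119708260 on the plus strand. Mevalonate is then phosphorylated by the products of Mvk and Pmvk. Mvk was at 47.3 and 56.4 TPM (51.9 ± 6.41, SD, n = 2) and Pmvk at 85.8 and 103.6 TPM (94.7 ± 12.6, SD, n = 2). Mvd, whose product decarboxylates the diphosphate to the isoprene unit, was at 37.9 and 47.5 TPM (42.7 ± 6.79, SD, n = 2). The kinases and the decarboxylase thus stood well under Hmgcs1 and each was higher in embryo 2. Idi1, the isomerase of the isoprene unit, was at 66.2 and 52.3 TPM (59.2 ± 9.84, SD, n = 2). Fdps, which condenses isoprene units to farnesyl diphosphate, was at 276 and 352 TPM (314 ± 53.4, SD, n = 2) and was the second highest gene.

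Farnesyl diphosphate then passes to the sterol branch. Fdft1, squalene synthase, had nearly the same level in both embryos, 114 and 116 TPM (115 ± 1.14, SD, n = 2). Sqle, the epoxidase that commits squalene to sterols, was at 167 and 132 TPM (149.7 ± 24.5, SD, n = 2). Lss, which closes the ring to lanosterol, was the lowest of these genes at 34.8 and 27.4 TPM (31.1 ± 5.19, SD, n = 2). Its estimated transcripts were also mixed: those annotated as protein-coding took 42.9% and 38.8% of the gene's TPM, and the full-length Lss-201 39.4% and 32.6%. TPM is per length, and part of the rest lay on short transcripts with few reads. Lss-202, of 352 bases and not annotated as protein-coding, took 21.8% and 27.2% on 36.7 and 36.2 estimated reads. Of the gene's 2057 and 1484 estimated reads, Lss-201 held 1200 and 782.

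From lanosterol on, the levels fell into an upper pair and a lower set. Cyp51, the demethylase that acts first on lanosterol, was at 116 and 96.5 TPM (106 ± 13.6, SD, n = 2). Msmo1, the sterol methyl oxidase, was at 142 and 136 TPM (139 ± 4.07, SD, n = 2). The other 6 genes were lower in both embryos. Sc5d, a sterol desaturase, was at 60.4 and 55.6 TPM (58.0 ± 3.40, SD, n = 2), and Dhcr7, a reductase that works late in the route, at 59.2 and 50 TPM (54.6 ± 6.51, SD, n = 2). Tm7sf2, a sterol reductase, was at 41.2 and 49.2 TPM (45.2 ± 5.71, SD, n = 2). Nsdhl and Ebp, a dehydrogenase and an isomerase, are the X-linked genes of the route. Nsdhl was at 38.8 and 38.1 TPM (38.5 ± 0.438, SD, n = 2), and Ebp at 24.0 and 19.6 TPM (21.8 ± 3.15, SD, n = 2). In scaled counts they were 1.09-fold and 1.01-fold higher in the embryo with Xist. Hsd17b7, the keto reductase that works with Nsdhl, was the lowest of the cholesterol enzymes at 17.6 and 16.5 TPM (17.1 ± 0.792, SD, n = 2).

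Among the regulators, Srebf2, the SREBP gene known chiefly for sterol genes, stood above Srebf1, known chiefly for fatty acid genes. Srebf2 was at 78.3 and 72.3 TPM (75.3 ± 4.25, SD, n = 2) and Srebf1 at 26.3 and 26.5 TPM (26.4 ± 0.141, SD, n = 2). The ratio of their TPM was 2.98 in embryo 1 and 2.73 in embryo 2. Scap, the escort, was at 33.7 and 34.0 TPM (33.9 ± 0.240, SD, n = 2). The retention proteins showed the same kind of imbalance: Insig1 was at 72.7 and 59.7 TPM (66.2 ± 9.16, SD, n = 2) and Insig2 at 22.8 and 23.4 TPM (23.1 ± 0.403, SD, n = 2). Insig1 itself is a known SREBP target, and its TPM was 3.18 times that of Insig2 in embryo 1 and 2.55 times in embryo 2. By deposited posterior mean TPM the gap was narrower, with Insig1 at 70.5 and 58.0 and Insig2 at 26.6 and 28.1. The TPM of Insig2 lay below the authors' deposited credibility bounds in both embryos, 23.1 to 30.2 and 24.0 to 32.2. The coding sequences of these pairs are far apart, with 57.8% identical columns in an alignment of Insig1 and Insig2 and 56.2% for Srebf1 and Srebf2, and no stretch of 30 bases was shared.

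The fatty acid genes were led by a desaturase and by the enzyme that supplies acetyl-CoA. Acly, which splits citrate to acetyl-CoA in the cytosol, was at 177 and 126 TPM (152 ± 36.1, SD, n = 2). Acaca, the carboxylase that makes malonyl-CoA, was lower, at 32.4 and 25.8 TPM (29.1 ± 4.73, SD, n = 2). Fasn, the fatty acid synthase, was at 92.5 and 92.8 TPM (92.6 ± 0.226, SD, n = 2). Elovl6, which lengthens palmitate, was at 13.9 and 14.2 TPM (14.0 ± 0.219, SD, n = 2). Of these 4 genes Acly was thus the highest and Elovl6 the lowest in both embryos.

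The desaturases Scd1 and Scd2, which place a double bond in stearate and palmitate, lie near each other on chromosome 19. Scd2 is at chr19:44293674-44306864 on the plus strand and Scd1 at chr19:44394455-44407879 on the minus strand. Scd2 was at 226 and 152 TPM (189 ± 52.8, SD, n = 2), and Scd1, the lowest of the 30 genes, at 5.47 and 4.64 TPM (5.06 ± 0.587, SD, n = 2). The ratio of Scd2 to Scd1 was 41.4 in embryo 1 and 32.7 in embryo 2, so the same form led by far in both. Their coding sequences, of 1074 and 1065 bases, had 89.6% identical columns. A window of 60 coding bases that is identical in both is printed to show how alike the genes are in places.
Scd1 and Scd2, coding bases 442 to 501 of Scd1 and 451 to 510 of Scd2: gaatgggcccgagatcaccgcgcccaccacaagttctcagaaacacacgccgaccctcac

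Reads that match both genes are divided between them by estimation. Of 4733 stretches of 100 bases in the Scd1 transcript, 48 also occurred in that of Scd2. The deposited posterior SD of the Scd1 count was 2.28 in embryo 1, against an estimate of 496 counts, so by the authors' estimate the division left little doubt about the Scd1 count. Stard4, which carries cholesterol between membranes and is a known SREBP target, was at 7.32 and 5.36 TPM (6.34 ± 1.39, SD, n = 2), the second lowest level.

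The embryos were then compared gene by gene. Ratios were taken from expected counts (estimated reads per gene) after TMM scaling, which sets library sizes by the bulk of the genes. All 30 genes passed the minimum of 100 summed counts, the lowest being Scd1 with 916 and the highest Hmgcs1 with 44655. None differed by 2-fold or more, against 4.79% of the 14011 genes with that many counts. None differed by 1.5-fold, against 14.2% of those genes. The median size of the log2 ratio, without its sign, was 0.18 for the 30 genes and 0.23 for all. Of the 30 genes, 18 were higher in embryo 2, where 50.6% of all genes were, and 12 were higher in embryo 1, where 49.4% were. The median log2 ratio of embryo 2 over embryo 1 was 0.028 for the 30 genes and 0.0056 for all genes. With spike-in scaling the medians were -0.083 and -0.11, and 12 of the 30 genes and 37.5% of all genes were higher in embryo 2. With the ratio of deposited TPM they were -0.10 and -0.13, with 12 genes and 34.7% of all genes.

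The roles did not lie alike around that centre. In the mevalonate arm 5 of 7 genes were higher in embryo 2, with a median log2 ratio of 0.33, and the count was 5 under every scaling and trend removal. The summed level of the arm was 1101 and 1147 TPM. Fdps had the widest ratio of the 30 genes, 1.41-fold higher in embryo 2 with a 95% counting interval of 1.36 to 1.46, and Mvd was 1.39-fold higher (1.28 to 1.497), Pmvk 1.32-fold (1.24 to 1.41), Mvk 1.26-fold (1.17 to 1.36) and Acat2 1.24-fold (1.20 to 1.28). Hmgcs1 and Idi1 lay on the other side. Hmgcs1 was 1.10-fold higher in embryo 1 (1.08 to 1.12), and Idi1 1.16-fold (1.11 to 1.22).

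Among the fatty acid genes 5 of 6 were higher in embryo 1, with a median log2 ratio of -0.16 and summed levels of 548 and 415 TPM. Scd2 was 1.35-fold higher in embryo 1 (1.32 to 1.38), Acly 1.28-fold (1.25 to 1.31), Acaca 1.14-fold (1.08 to 1.20) and Fasn 1.10-fold (1.07 to 1.12). Scd1 was 1.07-fold higher in embryo 1 with an interval of 0.934 to 1.22, which holds 1. Elovl6 was the exception, 1.13-fold higher in embryo 2 (1.05 to 1.21). The direction of Fasn turned with the ratio of deposited TPM, where its log2 ratio was 0.0050, and that of Scd1 turned when the trend on length was removed, with 0.028.

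Of the 3 squalene and lanosterol genes, Sqle was 1.14-fold (1.10 to 1.18) and Lss 1.25-fold (1.17 to 1.34) higher in embryo 1, and Fdft1 1.12-fold higher in embryo 2 (1.08 to 1.16). From lanosterol to cholesterol 7 of 8 genes were higher in embryo 2, but with a median log2 ratio of 0.036, and the count was 4 with total counts, 2 with spike-ins (median -0.075) and 1 with the ratio of TPM (median -0.11). Only Tm7sf2 of these moved far, 1.35-fold (1.24 to 1.48), and the intervals of Hsd17b7, Ebp, Sc5d and Dhcr7 hold 1. Cyp51 was 1.13-fold higher in embryo 1 (1.09 to 1.17). Among the regulators 4 of 5 were higher in embryo 2 (median log2 ratio 0.16, and -0.023 with the trend on GC content removed, when 2 of 5 were), led by Srebf1 at 1.19-fold (1.11 to 1.28) and Insig2 at 1.16-fold (1.06 to 1.27). Insig1 was 1.10-fold higher in embryo 1 (1.05 to 1.16), while the interval of Srebf2, 0.988 to 1.06, holds 1. Over the 30 genes the interval lay above 1 for 13, below 1 for 10 and held 1 for 7. The same count was not made over all genes, so it cannot be read as a trait of these 30. These intervals cover the error of counting alone: the reads carry no molecular identifiers, and variation between animals is not in them.

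**Figure D2:**
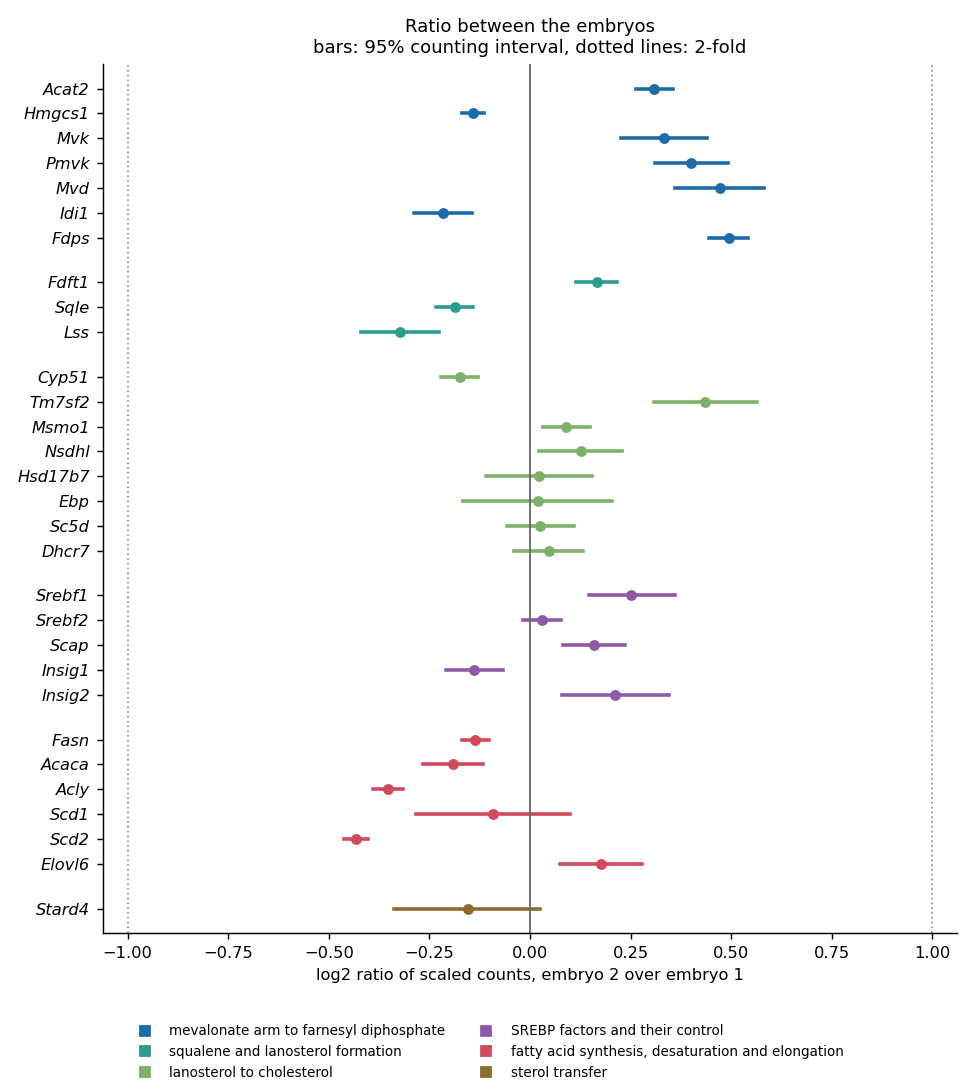
log2 ratio of scaled counts, embryo 2 over embryo 1, for each gene, with bars for the 95% counting interval and dotted lines at 2-fold. No bar reaches a dotted line; Fdps lies farthest right at 0.49 and Scd2 farthest left at -0.43.

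The direction held in 20 of the 30 genes under every scaling and trend removal run, a count that was not made over all genes. Of these 20 genes, 10 were higher in embryo 1 and 10 higher in embryo 2. The first set was Hmgcs1, Idi1, Sqle, Lss, Cyp51, Insig1, Acaca, Acly, Scd2 and Stard4. The second was Acat2, Mvk, Pmvk, Mvd, Fdps, Fdft1, Tm7sf2, Srebf1, Insig2 and Elovl6. In the other 10, Msmo1, Nsdhl, Hsd17b7, Ebp, Sc5d, Dhcr7, Srebf2, Scap, Fasn and Scd1, at least 1 setting turned the sign, and none of these ratios was over 1.12-fold.

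Transcript length moved with the ratio. Across the 30 genes the Spearman correlation of the log2 ratio with effective length was -0.63 (n = 30), and across 14011 genes it was -0.31. Genes share their libraries, so this is a description. All 7 members shorter than 2000 bases were higher in embryo 2 (68.8% of all genes in that range), 8 of 12 members between 2000 and 3000 bases (44.8%), and 3 of 11 longer ones (36.4%). The short members were Mvk, Pmvk, Mvd, Fdps, Tm7sf2, Msmo1 at only 1.06-fold and Ebp at 1.01-fold. The long ones include Hmgcs1, the 5 fatty acid genes that were higher in embryo 1, and Elovl6, which was higher in embryo 2. With the trend on length removed, the log2 ratio of Fdps went from 0.49 to 0.34 and that of Scd2 from -0.43 to -0.32. The median of the mevalonate arm went to 0.24 and that of the fatty acid genes to -0.077. GC content had a Spearman correlation of 0.43 with the ratio over the 30 genes and 0.25 over 13888 genes. The part of length or GC content in the members' ratios was not tested further.

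**Figure D3:**
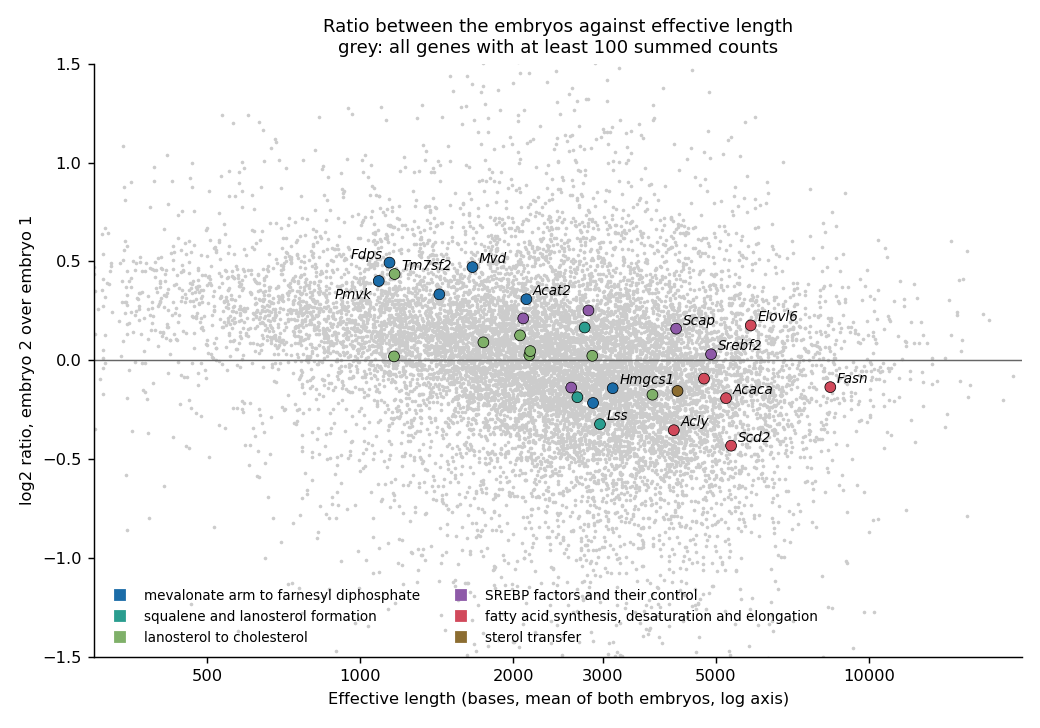
log2 ratio of embryo 2 over embryo 1 against effective length in bases on a log axis, for the 30 genes coloured by role and, in grey, for all genes with at least 100 summed counts (371 of 14011 lie outside the axes). The short genes of the mevalonate arm lie at the upper left and Scd2 and Acly below 0 at the right.

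Marker genes of other cell types and of cell division also differed between the libraries. Of the 7 genes of immature neurons 6 were higher in embryo 2, with a median log2 ratio of 0.40 (4 of 7 with spike-ins or the ratio of TPM). Progenitor genes were split, 4 higher in embryo 1 and 2 in embryo 2, with a median log2 ratio of -0.078. The 7 cell cycle genes were all higher in embryo 1 (6 of 7 with the trend on GC content removed), with sums of 378 and 220 TPM. Their median log2 ratio was -1.03, and 4 of the 7 differed by 2-fold or more, against 4.79% of all genes. The 2 of highest level differed less, Pcna at 104 and 90.6 TPM and Cdk1 at 75.2 and 46.7 TPM. Mesenchymal genes summed to 400 TPM in embryo 1 and 9.19 TPM in embryo 2, with Col3a1 at 187 and 2.81 TPM and Col1a2 at 71.2 and 1.90 TPM. Microglial genes summed to 93.2 and 35.4 TPM, erythroid genes to 6789 and 4446 TPM, and endothelial genes to 123 and 80.4 TPM. Genes of the oligodendrocyte lineage summed to 88.8 and 95.1 TPM and those of astrocytes to 198 and 191 TPM, with Gfap at 0.21 and 0 TPM. The oligodendrocyte sums hide opposite directions, 4 genes higher in embryo 2 and 3 in embryo 1 (6 and 1 with the trend on length removed). Only 1 of the 7 differed by 2-fold or more, higher in embryo 1, and that gene is also in the mesenchymal list. In bulk tissue fewer cells of a type and less RNA per cell cannot be told apart. The part of these marker differences in the ratios of the 30 genes was not tested.

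Transcript estimates add a layer to several members. In 10 of the 30 genes the tables hold 1 transcript, and in the other 20 several. Among those 20, the leading transcript took at least 90% of the gene's TPM in both embryos in 7, and under 60% in both in 7. Its share differed by less than 10 points between the embryos in 17. The 3 exceptions were Fasn, Acly and Stard4. With posterior mean TPM, Fasn-201 still differed, at 93.9% and 77.7%, while Acly-207 was at 41.5% and 50.2% and Stard4-201 at 70.0% and 75.6%, both under 10 points apart.

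For Fasn the coding transcript Fasn-201 took 96.9% of the TPM in embryo 1 and 77.8% in embryo 2. The remainder lay on short transcripts annotated as retained introns, Fasn-203 at 2.54 and 12.4 TPM and Fasn-202 at 0.37 and 8.19 TPM. The effective length of the gene, an average weighted by these estimates, was therefore 9216 bases in embryo 1 and 7557 bases in embryo 2. Expected counts were 16324 and 13409, so counts were lower in embryo 2 while the TPM were nearly equal. Fasn-201 itself was at 89.6 and 72.2 TPM.

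For Acly, coding transcripts differ by a short cassette exon and by their start. Acly-203 holds an exon of 30 bases, exon 14 of 29, at chr11:100503160-100503189 on the minus strand of GRCm38, inside the coding region and of 10 whole codons. The junction is printed with 30 bases of the neighbouring exons on each side to show what separates the forms, and capitals mark the cassette exon.
Acly with the exon: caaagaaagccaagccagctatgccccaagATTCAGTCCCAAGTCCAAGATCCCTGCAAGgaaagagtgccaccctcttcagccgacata
Acly without the exon: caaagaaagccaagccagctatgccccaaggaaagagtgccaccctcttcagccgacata

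Of the summed TPM of Acly-203, Acly-207 and Acly-201, the form with the exon took 36.1% in embryo 1 and 44.9% in embryo 2 (40.5% ± 6.18, SD, n = 2). Both forms were thus estimated in both embryos. Acly-203 was at 62.9 and 55.6 TPM and Acly-207, which lacks the exon and starts further downstream, at 72.5 and 65.6 TPM. Acly-201, which lacks the exon and shares the start of Acly-203, was at 38.7 TPM in embryo 1 and 2.70 TPM in embryo 2. The authors' deposited credibility bounds for Acly-201, 22.3 to 51.2 TPM and 0.849 to 12.0 TPM, do not overlap. By these estimates Acly-201 held most of the difference between the 177 and 126 TPM of the whole gene.

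Srebf1 lies on the minus strand of chromosome 11, and its 4 leading transcripts had different starts. Srebf1-201, from position 60220604, was at 10.3 and 7.84 TPM, Srebf1-207, from 60210465, at 7.03 and 8.30 TPM, and the non-coding Srebf1-204, from 60222581, at 5.23 and 3.81 TPM. Srebf1-203, a coding form from 60207188, was at 0.73 and 3.97 TPM. Srebf1-201 took 39.3% and 29.6% of the gene and Srebf1-207 took 26.8% and 31.4%. In embryo 2 no leading form can be named, since both took 26.9% by the deposited posterior mean TPM and their deposited bounds overlap. For Acaca the long Acaca-201 took 51.9% and 50.4% and the short Acaca-204 32.2% and 34.3%. For Stard4 the leading Stard4-201 took 75.7% and 86.0% of a low total. Hsd17b7-201 took 56.1% and 54.3% of its gene. How far these shares can be told from estimation error was not tested.

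**Figure D4:**
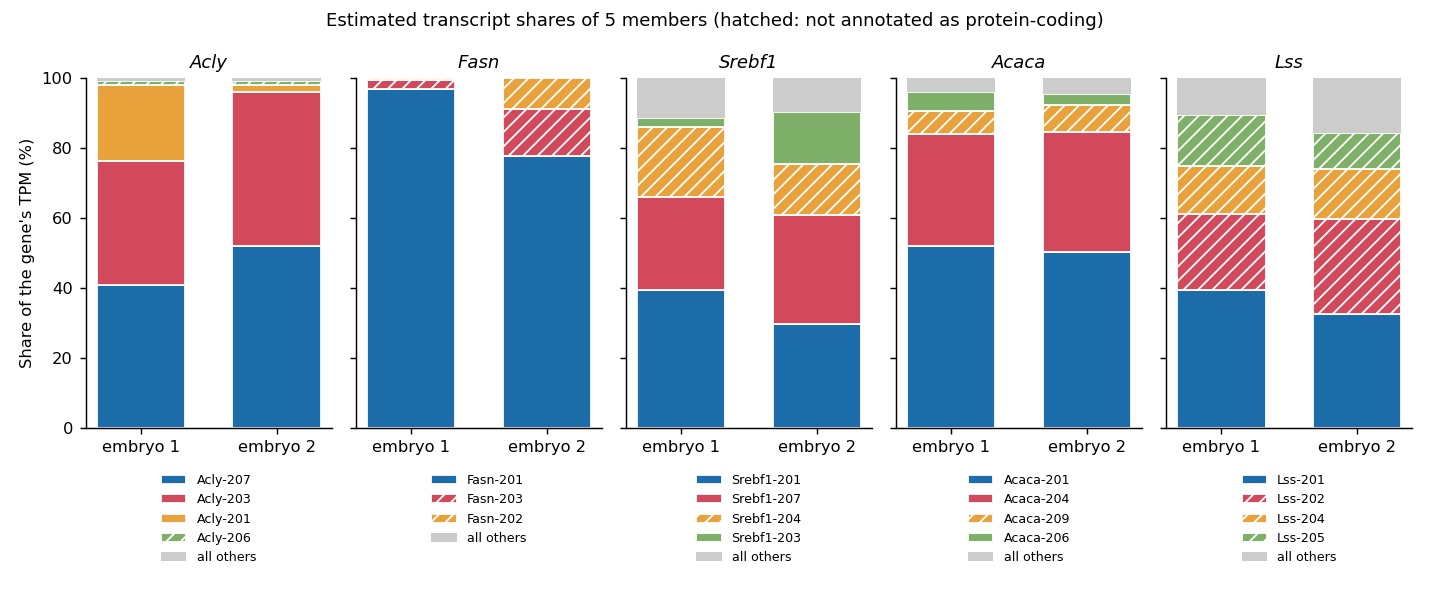
Share of each gene's TPM, in percent, taken by its leading transcripts in embryo 1 and embryo 2 for Acly, Fasn, Srebf1, Acaca and Lss; hatched bars are transcripts not annotated as protein-coding. Acly-201 shrinks from 21.8% to 2.14%, and the hatched part of Fasn grows.

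Several members overlap other genes, and no source used here gives the strand setting of the counts. Fdft1 shares 774 exonic bases with Ctsb on the opposite strand, a protease gene at 115 and 77.9 TPM. Cyp51 shares 166 bases with Akap9 on the opposite strand, at 284 and 312 TPM. Tm7sf2 shares 532 bases with Vps51 on the same strand, at 71.2 and 69.8 TPM, so the Tm7sf2 values carry the most doubt of these. Scap shares 985 bases with 5830462I19Rik, at 0.56 and 0.70 TPM, Lss 381 bases with 4930483K19Rik, at 0.05 and 0.14 TPM, and Srebf1 109 bases with Rai1, at 29.4 and 30.4 TPM. Without strand, reads of such overlaps cannot be told apart. In the later annotation Fdps also shares 1124 bases with the gene model Gm43738 on the same strand. Further models there, on the opposite strand, share 557 exonic bases with Hmgcs1, 323 with Idi1 and 34 with Elovl6. None of these later models was analysed here.

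The genes around the route were read from 4 further lists of 57 genes. In all, 49 of the 57 were detected, and none of the 51 with enough counts differed by 2-fold between the embryos (4.79% of all genes). The isoprenoid branches, which draw on farnesyl diphosphate for protein prenylation, dolichol and ubiquinone, had 10 of 10 genes detected at a median of 30.4 TPM, 8 of them higher in embryo 2 (5 with spike-ins or the ratio of TPM). Fnta, a prenyl transferase subunit, was at 78.0 and 74.96 TPM, Ggps1, which makes geranylgeranyl diphosphate, at 64.6 and 45.0 TPM, Rabggtb at 40.9 and 41.5 TPM and Dhdds, of dolichol synthesis, at 35.9 and 36.5 TPM. All 10 had lower means than Fdps, which supplies them.

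Of the further genes of SREBP processing and sterol sensing, 9 of 10 were detected and 8 of the 9 with enough counts were higher in embryo 1, with a median log2 ratio of -0.069 (5 of 9 with the trend on length removed). Rnf145 was at 101 and 94.98 TPM, Erlin2 at 61.4 and 39.7 TPM, and Nr1h2, a liver X receptor, at 49.3 and 44.1 TPM. Each of these 3 was above Srebf1 and Scap in both embryos.

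Of 16 genes of sterol transport, storage and oxidation, 13 were detected, 7 of those with enough counts higher in embryo 1 and 6 in embryo 2 (6 and 7 with the trend on length removed). Gramd1a, a sterol transfer protein of membrane contact sites, was at 141 and 151 TPM, Npc2, of lysosomal cholesterol export, at 48.9 and 43.7 TPM, Lbr, a nuclear envelope protein with sterol reductase activity, at 34.9 and 22.0 TPM and Stard3 at 29.01 and 27.0 TPM. Stard4 was far below Gramd1a and Stard3 in both embryos. Of 21 further fatty acid genes 17 were detected, with 8 higher in embryo 1 and 11 in embryo 2 (10 and 9 with total counts). Tecr, the reductase that ends each elongation round, was at 731 and 910 TPM, above every one of the 30 members. Hacd3, the dehydratase of the round, was at 136 and 118 TPM, Hsd17b12, its keto reductase, at 117 and 121 TPM, and the citrate carrier Slc25a1 at 116 and 122 TPM. Elovl6, the elongase among the members, was below these enzymes in both embryos, though above the dehydratase gene Hacd2, at 6.08 and 6.27 TPM, which was named after its values were seen.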

How the data were processed

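Total RNA of 2 embryonic midbrains was sequenced, 1 library each. Reads were aligned to mm10 with GENCODE M4, according to the text record the authors deposited. No source used here names the quantifier or the strand setting. Per the file headers, the authors deposited expected counts, TPM, FPKM, posterior mean TPM and, for transcripts, the share of the gene in percent (not used). Symbols came from GENCODE M21, on the same assembly, for 42462 of 43346 Ensembl rows. A further 26248 numeric rows and 96 spike-ins stayed out of library sizes. The 30 members, their roles and the other lists were chosen with earlier results of these data known. All members are named, with up to 4 genes of each further pathway list and 2 markers per list, by highest mean TPM, except 1 gene that is not reported here.

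Expected counts, deposited by the authors, were scaled by TMM (edgeR 4.0.16, R 4.3.3). Ratios used a prior count of 0.5, with a 95% exact conditional binomial interval from unscaled counts. No test was made between embryos, since 1 group of 2 has no condition, and the ratio code was tested on simulated data. Trends on length and GC content were fitted by lowess with a span of 0.3 (statsmodels 0.14.6). Alternatives were total, RLE, spike-in and TPM scaling, other count minimums, prior counts and TPM thresholds, posterior mean TPM and FPKM, other promoter letters and windows, and leaving out either embryo. Removing the trend on GC content was added after seeing the data. Protein identity, planned for the gene pairs, was replaced by identity of coding sequences from GENCODE M21 (Biopython 1.88).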

Additional observations from a re-analysis of the deposited data

How the results depend on the processing

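All 30 genes were detected at a TPM threshold of 0.5 and with posterior mean TPM, and 29 at a threshold of 5. No member differed by 2-fold under any scaling, minimum, prior count or trend removal run. The number of members higher in embryo 2 was 18 in the reported setting, 15 with total counts, 16 with RLE, 12 with spike-ins and with TPM, and 16 with the trend on GC content removed. The median log2 ratio of the members, 0.028 as reported, changed sign with total counts (-0.0010), spike-ins (-0.083) and TPM (-0.10), and was 0.037 with the trend on length removed. By role, the medians were 0.22 (mevalonate arm), -0.30 (squalene and lanosterol), -0.075 (lanosterol to cholesterol, sign changed), 0.049 (SREBP factors) and -0.27 (fatty acids) with spike-ins. With TPM they were -0.34, -0.11 (sign changed), 0.011 and -0.29 for the last 4, and with the trend on GC content removed that of the SREBP factors was -0.023. Total counts, RLE and spike-ins each move the log2 ratio of every gene by the same amount, so their sign changes follow from the scaling. With TPM, genes of equal effective length in both embryos also moved by nearly the same amount, as Sc5d (0.026 to -0.12) and Hmgcs1 (-0.14 to -0.29). Where effective length differed between the embryos, as in Fasn, the shift differed too. The part of effective length in the sign changes with TPM was not tested, nor the cause of that with the trend on GC content removed. The median of all genes was -0.023 with total counts, -0.11 with spike-ins and -0.13 with TPM. With total counts, RLE and spike-ins the difference between the medians of members and of all genes is fixed, at 0.022 as with TMM. In the settings that can change it, this difference was between 0.021 and 0.044. The median level of the members, 56.3 TPM, was 34.2 in FPKM, which is another unit, and 53.9 and 59.8 TPM with 1 embryo left out. The share of member promoter windows with the sterol regulatory element letters was 3.12% in the reported window and in a window of 200 bases before the start, and 6.25% with the looser letters. No paired analysis was possible because there is 1 group. With 2 embryos, differences between animals and between libraries cannot be told apart. Under posterior mean TPM, the level moved by more than its SD over the embryos in 7 of the 30 genes, Insig2 among them. The leading transcript's share moved by more than its SD over the embryos in 9 of 20 genes.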
